A study of Mus musculus with 9 samples.

Results

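Genes for the proteins of the cytosolic ribosome were examined for acetylation of histone H3 at lysine 27 (H3K27ac) at their promoters in mouse forelimb buds. They were chosen by name from the protein-coding genes of GENCODE release M21. A gene was taken if its name is Rpl or Rps followed by a digit, or is Rplp0, Rplp1, Rplp2 or Rpsa. Names that begin with Rps6k, which are kinases, and names that end in ps were left out. The rule found 92 of 21938 protein-coding genes on assembled chromosomes. Of these, 46 encode standard proteins of the large subunit and 31 those of the small subunit, called core genes below. The other 15 are paralogs such as Rpl3l, Rpl22l1 and Rps27l, retained copies such as Rpl9-ps6, and Rps19bp1, whose product is not a ribosomal protein.

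H3K27ac was profiled in forelimb buds at E10.5 (33 to 34 somites) by a chromatin immunoprecipitation (ChIP) protocol for small cell numbers, in which 1 pair of limb buds served each ChIP. The genotypes were wild type (WT), Shh-/-, which lacks the Hedgehog (HH) ligand of the limb, and Shh-/-;Gli3-/-, which also lacks GLI3, its main transcriptional repressor there. The null alleles, Shh tm1amc and Gli3 Xt-J, act in every cell. The labels call the strain background mixed, while the study's methods state that both alleles were kept on Swiss Webster, and embryo sex is not given in the sources used here. Each genotype has 2 H3K27ac replicates and 1 input library, but a single peak list. Genotypes were read from the sample titles, because a separate genotype label gives wild type for all 9 libraries. Each list belongs to the first replicate in the labels, which do not state whether replicates were pooled. No difference below could therefore be set against the spread between embryos, and no test was made.

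Ribosomal proteins assemble with ribosomal RNA into a large and a small subunit, which together translate messenger RNA. Their genes are transcribed in all growing cells and so are commonly taken as housekeeping genes. Many of their transcripts begin with a terminal oligopyrimidine (TOP) tract, a run of C and T at the very start, through which growth signals control their translation. H3K27ac lies on nucleosomes that flank active promoters and enhancers, while the start of transcription itself tends to be depleted of nucleosomes.

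Sequences around the start are shown for 6 core genes that have a peak in every list and for 5 genes that lack one in at least 1 list. The first set was chosen for function, and the second set holds genes whose window at the start of the gene record lacked a peak in a list. The sequences are at the principal start, which for Rpl3 and Rps2 is another position. For Rps10 it is the same position, which lies 1425 bp from the RefSeq start. Each runs from 60 bases before the start of the principal transcript to 20 bases from the start base onward, on the coding strand of build mm10. Capitals mark a matched motif or a TOP-like tract, here a C and at least 4 pyrimidines after it, with that C within 10 bases of the start. No capitals mean that no motif or tract searched was found in these 80 bases.
Rplp0, chr5:115559407-115559486, plus strand, CCAAT: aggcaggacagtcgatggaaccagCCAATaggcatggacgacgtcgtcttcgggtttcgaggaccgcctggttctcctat
Rpsa, chr9:120127629-120127708, plus strand, TOP-like tract: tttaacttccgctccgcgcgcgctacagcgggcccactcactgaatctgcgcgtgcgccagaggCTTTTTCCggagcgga
Rps6, chr4:86857393-86857472, minus strand, ETS motif: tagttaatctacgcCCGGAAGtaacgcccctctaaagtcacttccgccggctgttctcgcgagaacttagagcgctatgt
Rps19, chr7:24884311-24884390, plus strand, GC box on the other strand: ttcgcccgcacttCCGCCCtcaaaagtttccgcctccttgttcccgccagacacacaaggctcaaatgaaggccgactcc
Rpl11, chr4:136053374-136053453, minus strand, ETS motif: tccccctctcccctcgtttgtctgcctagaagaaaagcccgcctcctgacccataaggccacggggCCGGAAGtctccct
Rpl38, chr11:114668464-114668543, plus strand, no match: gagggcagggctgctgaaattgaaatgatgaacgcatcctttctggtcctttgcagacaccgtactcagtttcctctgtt
Rpl3, chr15:80083387-80083466, minus strand, GC box: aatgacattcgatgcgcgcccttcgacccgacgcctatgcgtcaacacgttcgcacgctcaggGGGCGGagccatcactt
Rps2, chr17:24720003-24720082, plus strand, TOP-like tract: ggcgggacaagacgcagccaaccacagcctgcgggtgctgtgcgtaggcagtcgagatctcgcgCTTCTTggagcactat
Rps10, chr17:27636650-27636729, minus strand, no match: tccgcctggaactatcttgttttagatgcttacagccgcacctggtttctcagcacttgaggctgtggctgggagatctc
Rpl3l, chr17:24727760-24727839, plus strand, no match: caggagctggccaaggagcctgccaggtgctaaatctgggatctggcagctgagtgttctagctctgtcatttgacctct
Rps27rt, chr9:114982720-114982799, minus strand, TOP-like tract: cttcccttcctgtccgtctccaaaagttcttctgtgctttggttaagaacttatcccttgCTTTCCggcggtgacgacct

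Motifs were then counted on both strands from 250 bases before to 50 bases after the principal start. The ETS motif CCGGAAG was in 22 of 77 core promoters (28.6%), against 11.2% of all protein-coding promoters. A TOP-like start was in 35 of 77 core genes (45.5%), against 30.7% of all genes, with a median tract of 6 bases and a longest tract of 17. In 8 of these 35 genes the tract began at the annotated start base itself. The GC box GGGCGG was in 48.1% of core promoters and in 45.4% of all promoters, but in 67.3% of promoters of genes with a WT peak. The YY1 motif GCCATCTT was in 6.49% against 3.08%, the E-box CACGTG in 13.0% against 7.78%, CCAAT in 31.2% against 38.6%, and TATAAA in 10.4% against 12.5%. Among genes with a WT peak the ETS motif was in 20.8% and a TOP-like start in 30.8%, and among mitochondrial ribosomal protein genes these were in 37.2% and 35.9%. The ETS share of the core promoters thus lay between those of both groups. Median GC content was 55.7% in the core promoters and 56% in all, while the ratio of observed to expected CpG dinucleotides was 0.838 against 0.558. At genes with a WT peak that ratio was 0.808 and at mitochondrial ribosomal protein genes 0.822, both close to the core genes. A motif match is a match of letters and not a measured site.

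Peaks were sought in a window of 3001 bp, which began 2 kb before the start and ended 1 kb after it, the start being the upstream end of the gene record. A peak counted when it overlapped the window by at least 1 bp. Nearly all core genes were marked in every genotype. Of the 92 genes, 79 had a peak in the WT list (85.9%, Wilson 95% interval 77.3 to 91.6), against 41.9% of all protein-coding genes. In the Shh-/- list there were 78 (84.8%, 76.1 to 90.7), against 45.7%. In the Shh-/-;Gli3-/- list there were also 78, against 43.9%. These intervals cover counting over genes and no variation between embryos. A peak in all 3 lists was found at 78 genes and a peak in none at 13, so presence of a peak differed between genotypes at 1 gene.

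That gene was Rps10, a small subunit protein at the entry of the messenger RNA channel. Its WT window held a single peak of 150 bp at chr17:27635700-27635849, with a log2 fold over input of 2.95, and the mutant windows held none. The RefSeq start of Rps10 lies 1425 bp away, however, and windows placed there were covered over 900 bp in WT, 950 bp in Shh-/- and 1250 bp in Shh-/-;Gli3-/-. The difference in presence thus held for the GENCODE start and not for the RefSeq start.

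Of the 77 core genes, 3 had no peak in any list: Rpl3, which lies near the peptidyl transferase centre, Rps2, a small subunit protein, and Rpl17, a large subunit protein. For Rpl3 and Rps2 the gene record begins well upstream of the principal transcript, by 8462 bp and 1947 bp. At the principal start, shown in the sequences above, Rpl3 was covered over 944 bp in WT, 1000 bp in Shh-/- and 1344 bp in Shh-/-;Gli3-/-. The principal start of Rps2 was covered over 1100, 800 and 1500 bp in the same order. Both genes were thus marked in all genotypes once the start was moved. For Rpl17 the nearest peak lay 1592 bp from the start in WT, likewise in Shh-/-, and 1892 bp from it in Shh-/-;Gli3-/-. At RefSeq starts, which were given for 57 of the core genes, all 57 had a peak in each list.

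The paralogs and copies had a peak less often than the core genes. A peak was found at 5 of the 15 (33.3%, Wilson interval 15.2 to 58.3). These were the same 5 genes in each list, namely Rpl22l1, Rpl36al, Rpl7l1, Rps27l and Rps19bp1. That interval included the shares of all protein-coding genes, which were 41.9% in WT, 45.7% in Shh-/- and 43.9% in Shh-/-;Gli3-/-. Among those without a peak were Rpl3l, the paralog of Rpl3 in heart and skeletal muscle, and Rpl10l and Rpl39l, which are known from testis. The 7 members with a single exon, the gene structure of a retrocopy, had no peak in any list. They made up 7 of the 10 paralogs and copies without a peak. For all protein-coding genes of a single exon the share with a peak was 19.4% for WT, 22.5% for Shh-/- and 20.9% for Shh-/-;Gli3-/-.

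The lists themselves were unequal, which bears on every width below. They held 25096 (WT), 32085 (Shh-/-) and 34641 (Shh-/-;Gli3-/-) peaks that covered 10.4, 12.9 and 17.1 Mb. All 5 markers of forelimb mesenchyme examined (Tbx5, Prrx1, Msx1, Twist1 and Meis2) had a promoter peak in each list. Markers of hindlimb (0 of 2), ectoderm, endothelium and neural tissue (0 of 4 each) had none. Of 4 blood markers Klf1 had a peak, in Shh-/- only, and of 4 markers of muscle precursors Lbx1 had a peak, in Shh-/-;Gli3-/- only. Their part in the results was not tested. The files do not give the depth of the libraries.

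Coverage of the ribosomal protein promoters was broad and was similar in WT and Shh-/-, and larger in Shh-/-;Gli3-/-. Covered bp, the bases of the window that lie under a peak, had a median of 1046 bp in the WT list (95% interval of the median 932 to 1150, n = 79 genes). The median was 1070.5 bp in the Shh-/- list (968 to 1200, n = 78) and 1334.5 bp in the Shh-/-;Gli3-/- list (1148 to 1400, n = 78). All protein-coding genes with a peak had medians of 700, 750 and 896 bp. The ribosomal protein genes thus exceeded the median gene in each list. This was not particular to them, since 18 other genes of the translation machinery, such as Eef2 and Fau, had 1238, 1288 and 1400 bp. Mitochondrial ribosomal protein genes had 500, 700 and 750 bp, and proteasome subunit genes 650, 800 and 950 bp. In the WT list the values of the cytosolic ribosomal protein genes ran from 150 bp at Rps10 to 2450 bp at Rpl7.

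Gene by gene, the 2 mutant lists were compared with the WT list at the 78 genes with a peak in all lists, so both comparisons share the WT values. In Shh-/- over WT, covered bp was higher at 34 genes, lower at 36 and equal at 8, against 61.9% higher among all genes with a peak in both lists. The median ratio was 1.0 (0.947 to 1.06), and that of all genes was 1.12. A ratio of at least 1.5 was reached by 5 of the 78 (background 25%), and a ratio of at most 1/1.5 by 2 (background 6.65%). In Shh-/-;Gli3-/- over WT, covered bp was higher at 68 genes, lower at 7 and equal at 3, against 75.7% higher among all genes. The median ratio was 1.17 (1.12 to 1.23), below the 1.23 of all genes. At least 1.5 was reached by 12 genes (background 30%), and at most 1/1.5 by 0 (background 3.99%). In direct comparison of the mutants, Shh-/-;Gli3-/- over Shh-/-, covered bp was higher at 66 genes and lower at 8, against 58.7% higher among all genes. Here the median ratio was 1.15 (1.09 to 1.27), above the 1.09 of all genes. At least 1.5 was reached by 11 (background 16.3%) and at most 1/1.5 by 1 (background 9.76%).

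The shift toward Shh-/-;Gli3-/- was thus found at most ribosomal protein genes, though at least 1.5 times the WT value was less frequent than at all genes. The order WT below Shh-/- below Shh-/-;Gli3-/- held at 24 of the 78 genes. No share over all genes is at hand for this order, so the count is not read as high or low. The peaks covered 1.24 times as many kb at these genes in the Shh-/-;Gli3-/- as in the WT list, counted over whole peaks. The same quotient was 1.30 for promoter peaks of the whole list and 2.32 for peaks away from promoters. Each list was also limited to its top peaks up to the same total covered length. The Shh-/-;Gli3-/- median at these genes was then 1062 bp and the median ratio to WT was 1.12, against 1.13 for all genes at that setting. The value for all genes there came from 6466 genes, and from 8845 without the limit.

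The intervals of the large and small subunit overlapped in all comparisons. For Shh-/- over WT the median ratio was 1.0 in 44 core genes of the large subunit and 0.992 in 29 of the small subunit. For Shh-/-;Gli3-/- over WT it was 1.17 (1.11 to 1.23) and 1.16 (1.10 to 1.27), and for Shh-/-;Gli3-/- over Shh-/- it was 1.14 (1.05 to 1.27) and 1.19 (1.09 to 1.35). Other gene groups for large protein complexes gave a comparison. Mitochondrial ribosomal protein genes had median ratios of 1.17, 1.31 and 1.14 in the same order of comparisons, and proteasome subunit genes 1.10, 1.38 and 1.17. The 18 other genes of the translation machinery had 1.05, 1.15 and 1.10.

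**Figure D1:**
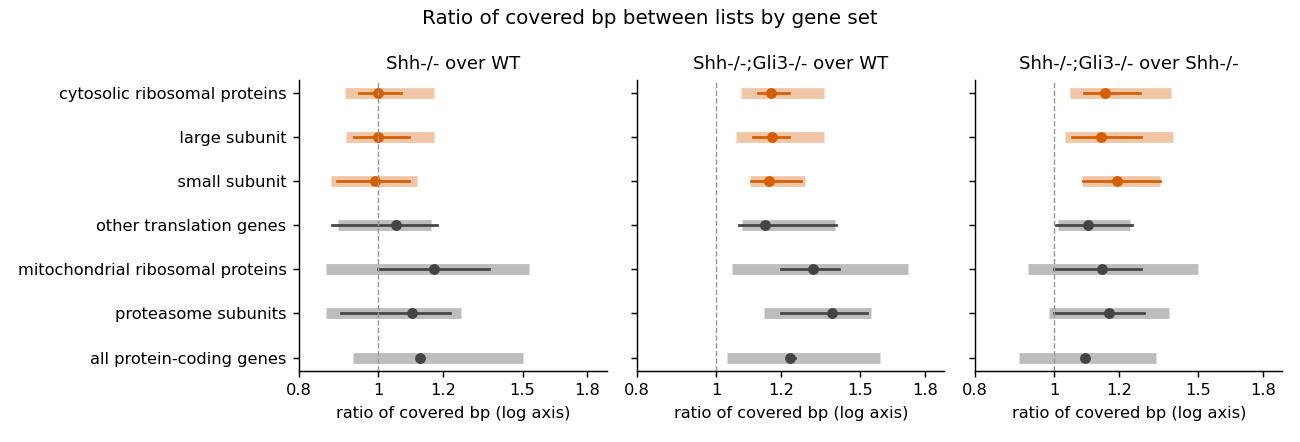
Ratio of covered bp between lists (log axis) by gene group, with a point for the median over genes, a thin line for its 95% interval and a thick bar for the range from the lower to the upper quartile of genes. For Shh-/- over WT the ribosomal protein genes lie at a median of 1.0 and all protein-coding genes at 1.12.

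The stalk proteins Rplp0, Rplp1 and Rplp2, which recruit translation factors to the large subunit, differed in the order of the lists. Rplp0 was covered over 800 bp in WT, 968 bp in Shh-/- and 1000 bp in Shh-/-;Gli3-/-, by a single peak in each list, which in WT was chr5:115559500-115560299 and began 33 bp after the start. Rplp1 had 1250 bp in WT and 950 bp in each mutant, and its ratio of 0.760 was the lowest of all 78 genes in Shh-/-;Gli3-/- over WT. Rplp2 was covered over 600 bp in WT, 1200 bp in Shh-/- and 1071 bp in Shh-/-;Gli3-/-. The WT value was thus the highest at Rplp1 and the lowest at Rplp0 and Rplp2.

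Genes of the small subunit that are well known for their function showed the largest coverage in Shh-/-;Gli3-/-. Rpsa, also known as the laminin receptor precursor, was covered over 1240 bp in WT, 1050 bp in Shh-/- and 1590 bp in Shh-/-;Gli3-/-. Rps6, the substrate of the S6 kinases, had 1388, 1188 and 1538 bp in the same order. Rps19, the gene most often mutated in Diamond-Blackfan anaemia, had 1022, 1522 and 1672 bp. The Shh-/- value lay below WT at Rpsa and Rps6 and above it at Rps19. Rps6 shows how gaps between peaks entered these values. In WT it had 3 peaks, of which the longest was chr4:86856150-86857399, in Shh-/- it had 2, and in Shh-/-;Gli3-/- a single peak of 1900 bp at chr4:86856050-86857949 ran across the start.

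Among large subunit genes with known roles, Rpl5 and Rpl11, which form a complex with the smallest ribosomal RNA and bind MDM2, had nearly equal values. Rpl5 was covered over 900 bp in WT and 953 bp in each mutant, and Rpl11 over 922 bp in WT, again 922 bp in Shh-/-, and 972 bp in Shh-/-;Gli3-/-. Rpl24, mutated in the Belly spot and tail mouse, had 650 bp in WT, 926 bp in Shh-/- and 1276 bp in Shh-/-;Gli3-/-. Its ratio of 1.96 for Shh-/-;Gli3-/- over WT was among the 5 highest. Rpl38, mutated in the Tail short mouse and needed for translation of some Hox messenger RNAs, had 925, 700 and 1025 bp. Its Shh-/- to WT ratio of 0.757 was among the 5 lowest.

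The most widely covered genes in WT kept broad coverage in the mutants. Rpl7, a large subunit protein, had 2450 bp in WT, 2288 bp in Shh-/- and 2538 bp in Shh-/-;Gli3-/-. Rpl4, which lines the exit tunnel, had 2000, 2000 and 2126 bp, and Rpl7a had 1665, 1650 and 1665 bp. The ratios between lists of these 3 genes all lay between 0.934 and 1.11. Rpl27a had 1948, 1600 and 1898 bp. Rpl13a had 1739, 1589 and 2439 bp, and in Shh-/-;Gli3-/- the covered bp lay under a single peak of 3450 bp that reached beyond the downstream end of the window. Another protein-coding start lay in the window of 17 of the 92 members, such as Rdh10 at Rpl7 and Zwilch at Rpl4, so that their coverage cannot be assigned to 1 gene. No pair of members shared a peak.

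Several genes with little coverage in WT were also among those with the largest ratios. The WT value is the denominator of the ratios to WT, so a low one favours a large ratio. Of the genes marked in all lists, Rps24 had the least in WT, at 250 bp, with 400 bp in the Shh-/- and 450 bp in the Shh-/-;Gli3-/- list. Its RefSeq start lies 3553 bp from the gene-record start, and windows there held 950, 1000 and 1054 bp. Rpl7l1, a paralog of Rpl7, had the highest ratio for Shh-/-;Gli3-/- over WT at 3.32, with 400, 800 and 1328 bp. Rps19bp1 stood apart in the other direction. It was covered over 300 bp in WT, 850 bp in Shh-/- and 250 bp in Shh-/-;Gli3-/-, which gave both the highest Shh-/- to WT ratio, 2.83, and the lowest ratio between the mutants, 0.294. Among core genes, Rpl34 had 750, 1100 and 1552 bp, and Rpl18 had 300, 400 and 600 bp. Both had at least 2 times the WT value in Shh-/-;Gli3-/-. For Rpl18 this held at the gene-record start only. Its RefSeq start lies 2614 bp away, and windows there held 1372, 1500 and 1822 bp. Rpl35 was highest in Shh-/-, with 526 bp in WT, 901 bp in Shh-/- and 601 bp in Shh-/-;Gli3-/-. Its RefSeq start lies 493 bp away, and windows there held 1000, 1150 and 969 bp. The Shh-/- list was thus highest at either start, but the low WT value held at the gene record only.

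A further group had less coverage in Shh-/- than in WT. Rpl36 had 900 bp in WT, 550 bp in Shh-/- and 700 bp in Shh-/-;Gli3-/-, and Rps7, which binds MDM2, had 1250, 800 and 1447 bp. Their Shh-/- to WT ratios of 0.611 and 0.640 were the only ones at or below 1/1.5. Rpl22 had 1043, 750 and 1043 bp, so that Shh-/-;Gli3-/- equalled WT. Rpl15 had 559, 509 and 909 bp and Rps27 had 900, 800 and 1349 bp, so that both were highest in Shh-/-;Gli3-/-. Rps25, which some viral messenger RNAs need for initiation, had 1140, 1340 and 1090 bp, Rpl23a, next to the tunnel exit, had 850, 1050 and 866 bp, and Rps15 had 1100, 1350 and 1204 bp. These last 3 were highest in Shh-/-. For Rps25 this held at the gene-record start only. Its RefSeq start lies 575 bp away, and windows there held 1400, 1350 and 1550 bp. Rps21 had 1650 bp in WT and 1500 bp in each mutant.

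The highest ratios of Shh-/-;Gli3-/- over Shh-/- were at X-linked genes. Rpl39, which sits in the exit tunnel, had 748 bp in WT, 598 bp in Shh-/- and 1148 bp in Shh-/-;Gli3-/-. Rpl10, which joins the subunit late in its assembly, had 1413, 1100 and 2063 bp. Their ratios were 1.92 and 1.88. The 4 X-linked members, Rpl39, Rpl10, Rps4x and Rpl36a, had a median ratio of 1.34 for Shh-/-;Gli3-/- over WT and 1.66 over Shh-/-, and the 74 autosomal members 1.17 and 1.13. All X-linked protein-coding genes with a peak in all lists had 1.77 and 1.59. The X held 4.21% of Shh-/-;Gli3-/- peaks, 2.41% of WT and 2.17% of Shh-/- peaks. The sex of the embryos and the genotype cannot be told apart here.

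Peaks of the ribosomal protein genes lay mainly downstream of the start, with a gap just upstream of it. The largest peak statistic lay downstream at 72 of 79 genes in WT, 68 of 78 in Shh-/- and 72 of 78 in Shh-/-;Gli3-/-, against 76.6%, 77.2% and 78.1% of all genes with a peak. Downstream coverage reached its maximum 450 to 500 bp from the start, where 92.4% of genes were covered in WT, 93.6% in Shh-/- and 96.2% in Shh-/-;Gli3-/-. Upstream, coverage peaked between 250 and 300 bp from the start at 46.8%, 52.6% and 62.8%. The gap lay at 100 bp upstream, where 24.1%, 25.6% and 44.9% of genes were covered, and it was also present at all genes with a peak, at 28.1%, 31.4% and 40.1%. At 1 kb downstream a peak still covered 49.4%, 47.4% and 71.8% of ribosomal protein genes, against 19.6%, 20.2% and 24.3% of all genes with a peak. The ribosomal protein genes are short, with a median length of 3243 bp against 17425 bp for all genes.

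**Figure D2:**
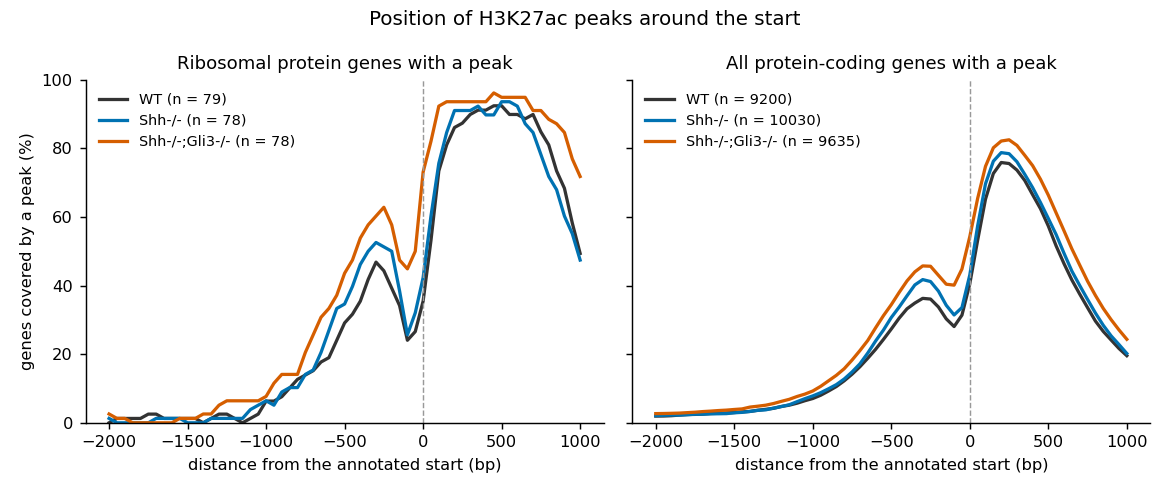
Share of genes with a peak in the list (vertical axis, %) whose position at each distance from the start (horizontal axis, bp) lies under a peak, for ribosomal protein genes (left) and all protein-coding genes (right), with 1 line per list. At the ribosomal protein genes the dip 100 bp upstream of the start lies at 24.1% in WT, 25.6% in Shh-/- and 44.9% in Shh-/-;Gli3-/-.

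The start base was covered more often in Shh-/-;Gli3-/- than in the other lists. It lay inside a peak at 28 of 79 genes in WT (35.4%, 25.8 to 46.4), against 40.5% of all genes with a peak. In Shh-/- it did so at 33 of 78 genes (42.3%, 32.0 to 53.4), against 43.1%. In Shh-/-;Gli3-/- it did so at 57 of 78 (73.1%, 62.3 to 81.7), against 54.3%. In these lists the WT and Shh-/- intervals included the background and the Shh-/-;Gli3-/- interval lay above it. With equal covered length per list, however, the Shh-/-;Gli3-/- share was 70.1% at the ribosomal protein genes against 66.9% at all genes. Most of the distance from the background was thus absent at that setting. The genes compared changed too, since all genes with a peak fell from 9635 to 6540 and the ribosomal protein genes from 78 to 77. Peaks on both sides with a bare start were at 24 genes in WT (background 20.1%), 24 in Shh-/- (23.2%) and 13 in Shh-/-;Gli3-/- (16%). A peak only downstream was at 25, 19 and 6 genes, which is 31.6%, 24.4% and 7.69%, against 32.4%, 28.2% and 24.7% of all genes with a peak.

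**Figure D3:**
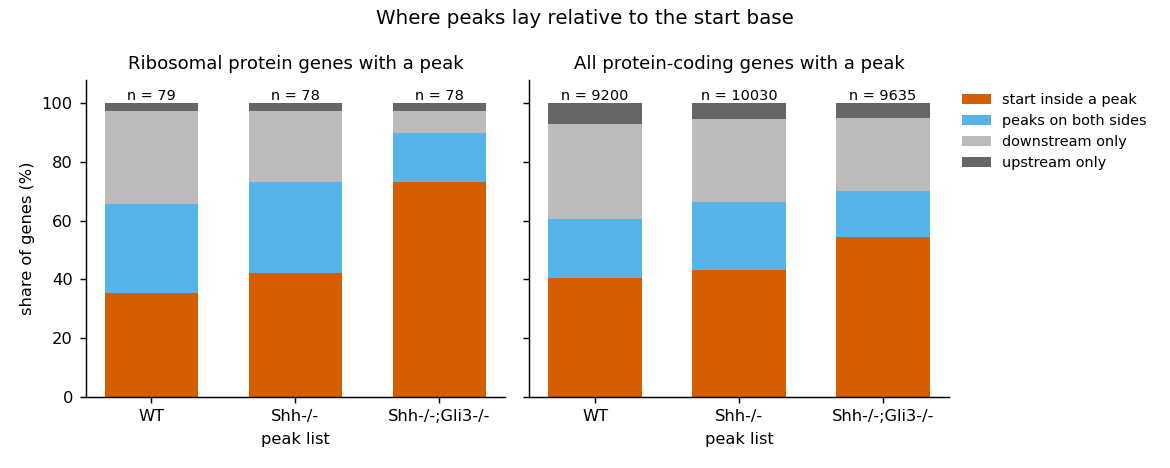
Share of genes with a peak (vertical axis, %) by the position of the peaks relative to the start base, for the 3 lists, at ribosomal protein genes (left) and all protein-coding genes (right), with the number of genes above each bar. The part with the start inside a peak is 35.4%, 42.3% and 73.1% at ribosomal protein genes and 40.5%, 43.1% and 54.3% at all genes.

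The start base was inside a peak in Shh-/-;Gli3-/- only at 22 of the 78 genes (28.2%), against 11.4% of all genes with a peak in all lists. They included Rplp0, Rpsa, Rps6, Rpl24, Rpl34 and Rpl38, all described above. A covered start in all lists was found at 19 genes (24.4%, against 30.9% of all genes), such as Rpl4, Rpl7, Rpl7a and Rpl13a, and in no list at 16 (20.5%, against 30.9%), such as Rpl5, Rpl11 and Rplp1. It was covered in WT only at Rpl27a and Rps14 (2.56%, against 3.63%), and in both mutants but not in WT at 11 genes (14.1%, against 10%), among them Rps19 and Rplp2. These shares depended on narrow gaps between peaks. With gaps of up to 500 bp filled, the start lay inside a peak at 62.0% in WT, 70.5% in Shh-/- and 88.5% in Shh-/-;Gli3-/-.

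The number and width of the peaks changed alongside. The windows held 128 peaks in WT, 136 in Shh-/- and 120 in Shh-/-;Gli3-/-, with mean widths of 756, 679 and 996 bp. More than 2 peaks were at 8 genes in WT, 11 in Shh-/- and 2 in Shh-/-;Gli3-/-. Among all genes with a peak this was so at 842 of 9200, 1104 of 10030 and 598 of 9635. Fewer and wider peaks thus covered these promoters in Shh-/-;Gli3-/-. Wider peaks were not particular to them, since promoter peaks of the whole lists had mean widths of 561, 563 and 724 bp. The upstream outer edge lay at a median of 334 bp before the start in WT, 425.5 bp in Shh-/- and 454 bp in Shh-/-;Gli3-/-, and the downstream edge at 997, 994.5 and 1134.5 bp after it. Compared with WT, the Shh-/-;Gli3-/- list gained 22.2 kb and lost 4.02 kb within the 78 windows. Of the gain, 52.4% lay upstream of the WT edges, 30.7% between them and 16.9% downstream, where the window ended at 1 kb although many peaks ran on. At all 8652 genes with a peak in all lists, 2432.5 kb were gained and 692.7 kb lost. There 40.6% of the gain lay upstream, 27.5% between and 31.9% downstream. Shh-/- gained 12.8 kb and lost 10.8 kb against WT, and at all genes 2032.7 and 1134.1 kb.

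Within each list, the peaks at ribosomal protein genes ranked high. By the caller's statistic the strongest peak of each gene stood at a median percentile of 90.4 in WT, 89.7 in Shh-/- and 93.9 in Shh-/-;Gli3-/-, against 78.8, 81.4 and 83.0 for all genes. The 18 other translation genes ranked higher still, at 93.0, 92.0 and 96.2. Mitochondrial ribosomal protein genes stood at 76.4, 82.4 and 82.7, and proteasome subunit genes at 78.2, 84.6 and 90.1. The strongest peak was in the top 10% of its list at 41 cytosolic ribosomal protein genes in WT (background 25.8%), 37 in Shh-/- (29.7%) and 60 in Shh-/-;Gli3-/- (32.8%). The highest log2 fold over input was at Rpsa in WT, 6.49, and at Rps6 in Shh-/-;Gli3-/-, 7.02. These folds each refer to the input of their own genotype and are not compared between lists. Most of the peaks also passed a stricter threshold, since 19 of 128 WT, 8 of 136 Shh-/- and 8 of 120 Shh-/-;Gli3-/- peaks had a false discovery rate (FDR) above 0.05. Over the whole lists this held for 9828 of 25096 WT, 8847 of 32085 Shh-/- and 5739 of 34641 Shh-/-;Gli3-/- peaks. The highest FDR in a list was 0.350 in WT, 0.186 in Shh-/- and 0.109 in Shh-/-;Gli3-/-, so the lists ended at unlike thresholds.

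Other promoters of like coverage gave a closer background. The 2109 other genes whose mean over the 3 lists lay between the quartiles of the ribosomal protein genes had the start inside a peak at 58.4% in WT, 64.3% in Shh-/- and 78% in Shh-/-;Gli3-/-. The 38 ribosomal protein genes in that range had 42.1%, 44.7% and 73.7%. Their median ratios were 1.0 for Shh-/- over WT, 1.21 for Shh-/-;Gli3-/- over WT and 1.16 between the mutants, against 1.11, 1.21 and 1.09 at the other genes. Among promoters of like coverage, the ribosomal protein genes thus had the lower share of covered starts in each list and an equal median ratio for Shh-/-;Gli3-/- over WT.

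The spread of the ratios was used as a yardstick for the 6 HH target genes examined. The principal start was used for both, at which 80 ribosomal protein genes had a peak in all lists. Their ratios ran from 0.611 to 2.83 for Shh-/- over WT, from 0.760 to 3.36 for Shh-/-;Gli3-/- over WT and from 0.294 to 1.92 between the mutants. All genes varied more. At the gene record, the standard deviation of the log2 ratios was 0.37, 0.33 and 0.37 at ribosomal protein genes, in the same order. At all protein-coding genes it was 0.69, 0.66 and 0.63. The HH targets were not ranked among all genes, so a place outside the 80 is not read as rare. Ptch1, the HH receptor, was covered over 2165 bp in WT, 215 bp in Shh-/- and 2851 bp in Shh-/-;Gli3-/-. Its ratio was 0.0993 for Shh-/- over WT, below all 80, 1.32 for Shh-/-;Gli3-/- over WT, above 56 of them, and 13.3 between the mutants, above all. The result for Ptch1 depended on the start, since the window at its gene record held 400, 0 and 100 bp, and the Shh-/-;Gli3-/- to WT ratio there was 0.250, below all of the ribosomal protein genes. Hoxd11, of the distal limb, had 750, 100 and 2124 bp, with ratios of 0.133 below all 80, 2.83 above 79 of them and 21.2 above all. At its gene record it had 0, 0 and 300 bp. The other HH targets had the same values at either start. Hand2, a posterior limb transcription factor, had 784, 984 and 1684 bp, and its ratio of 2.15 for Shh-/-;Gli3-/- over WT lay above 79 of the 80. Hoxd13 had 100, 0 and 950 bp, and its ratio of 9.50 for Shh-/-;Gli3-/- over WT lay above all 80. Hoxd12 had 137, 0 and 87 bp, and its ratio of 0.635 lay below all 80. Peaks lie on a grid of 50 bp, so ratios from windows covered as little as at Hoxd12 and Hoxd13 in WT can shift far with a single grid step. The 78 ribosomal protein genes with a peak in all lists had at least 250 bp in WT at the gene record. Gli1, an HH target in many tissues, had 776 bp in WT and 0 bp in each mutant. Windows with 0 bp in a list gave no ratio.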

How the data were processed

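H3K27ac peaks were analysed for 3 genotypes from 1 deposited list each. Per the submitters' processing notes, reads were aligned to mm10 with Bowtie2 2.2.5, and per the study's methods peaks were called with CisGenome. Per the labels, libraries were amplified over 12 cycles. The deposited values are the authors' own: the largest log2 fold over input in a peak, the FDR (a q-value), the −log10 Poisson p-value, which the deposited lists stop at 100, and the score that orders each list. Replicates cannot be told apart in them, nor whether positions count from 0 or 1. From the files, covered bp per promoter window was computed with Python 3.11.15, numpy 2.4.6, pandas 2.3.3, scipy 1.17.1 and matplotlib 3.10.9, with starts from GENCODE M21 (GRCm38, equal to mm10), in which no list ran past a chromosome end. Sequences come from that genome, and alternative starts from RefSeq. A fold of 1.5 counted as a call. Shares have Wilson 95% intervals and medians binomial order-statistic intervals. No p-value was computed. The coverage code was checked on simulated data, in which 200 of 200 widened peaks among 21938 genes gave the added bp, while 225 genes changed in all. Genes named were those without a peak in a list, the 5 highest and lowest in WT coverage and in each ratio, and 10 stalk and other well-known genes. The members and lists were chosen with earlier results of these data known.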

Additional observations from a re-analysis of the deposited data

How the results depend on the processing

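Shares, medians and ratios at the ribosomal protein genes were recomputed with FDR below 0.05, a log2 fold of at least 3, equal peak numbers, equal covered length, a window of 1 kb on either side, principal starts, core genes only, autosomes only and whole peak widths. The filling of gaps, the start-base shares, the RefSeq starts, the like-coverage background, the ratios at principal starts set beside HH targets and the X-linked split were chosen after seeing the data. Of the recomputed values, 102 stayed within their interval and 12 left it, and 0 reversed direction. The WT list kept all 25096 peaks with equal peak numbers and with equal covered length. Its shares and medians at these settings could not change and are counted among the 102. A reversal could be scored only for the ratios to or between lists with a main log2 ratio other than 0. For Shh-/- over WT that ratio was 0. It became -0.061 with equal covered length and -0.022 with whole peak widths, both within its interval. With core genes only, the share with a peak was 96.1% in WT and 94.8% in each mutant. With equal covered length, the Shh-/-;Gli3-/- median was 1062 bp and the log2 ratio to WT 0.17, and with whole peak widths that median was 1500 bp. With gaps of up to 500 bp filled, the median was 1238 bp in Shh-/- and 1425 bp in Shh-/-;Gli3-/-, the log2 ratio between the mutants was 0.11, and the start lay inside a peak at 62.0% in WT, 70.5% in Shh-/- and 88.5% in Shh-/-;Gli3-/-. The cause was not tested. No paired analysis was possible because the peak lists carry no value per replicate, and leaving out replicates was not run for the same reason. The study's methods give a minimum depth for all libraries but not the depth of each, so that peak width and sequencing depth cannot be told apart between lists.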
